A study of Mus musculus with 21 samples.

Results

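The unfolded protein response and the integrated stress response were examined in mouse kidney through 10 genes, listed by name for their place in these pathways and found by symbol among the gene names the authors deposited. All 10 were measured, out of 21657 genes in the count tables. They comprise the sensors Eif2ak3 (PERK) and Ern1 (IRE1), the PERK and ATF4 branch with Atf4, Ddit3, Atf3, Asns and Trib3, the transcription factor Xbp1, and the chaperones Hspa5 and Hsp90b1. Their transcripts were compared between kidneys of control mice, of mice fed adenine and of mice fed adenine with iodomethylcholine (IMC), which blocks the bacterial enzyme that makes trimethylamine in the gut.

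All animals were female apoE KO mice on the C57BL/6J background, so the controls also lacked apolipoprotein E. From 4 weeks of age they received, for 14 weeks, chow (Con, 5 mice), chow with 0.2% adenine (Ade, 6 mice) or chow with 0.2% adenine and 0.06% IMC (Ade + IMC, 6 mice), and the kidneys were taken at 18 weeks. Of the 21 mice in the labels, 4 received IMC without adenine and were not analysed here. Each library is 1 mouse, called by its number in the labels, and held 5444833 to 11680809 counted reads. Levels are given as CPM, the read count scaled to the size of the library by the TMM method over the 17 mice, and fold changes are on the log2 scale with their standard error (SE). A gene was called where its p-value, adjusted by the Benjamini-Hochberg method over all genes tested, was below 0.1, by edgeR's quasi-likelihood test against Con and by limma between the adenine-fed groups.

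When unfolded proteins collect in the endoplasmic reticulum (ER), the membrane sensors PERK, IRE1 and ATF6 are activated. PERK phosphorylates the translation factor eIF2, which slows protein synthesis in general but favours translation of ATF4, and ATF4 induces genes of amino acid supply and, with prolonged stress, CHOP (encoded by Ddit3) and TRIB3. Other eIF2 kinases, which sense amino acid shortage, double-stranded RNA or haem, reach ATF4 without ER stress, and this wider route is called the integrated stress response. IRE1 splices the Xbp1 transcript, and XBP1 and ATF6 together raise the ER chaperones. The chaperone transcripts thus report on one side of the response and the ATF4 targets on another. Counts per gene carry neither the splicing of Xbp1 nor the phosphorylation of PERK and eIF2 nor the translation of Atf4.

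Promoter sequences are shown because the chaperones and the ATF4 targets differ in the elements they carry. Each is the RefSeq window of GRCm38.p6 from 250 bases before to 50 bases after the transcription start, in the direction of transcription, and windows were found for 10 of the 10 genes. Both strands were searched for the ER stress response element (CCAAT, any 9 bases and CCACG), the C/EBP-ATF response element (TGATGNAA) and the core of the unfolded protein response element (TGACGTGG), which do not overlap one another in these windows. Matches are in capitals. The windows of Hspa5 (chr2:34771840-34772139, plus strand) and Hsp90b1 (chr10:86705395-86705694, minus strand) held the ER stress response element, and those of Asns (chr6:7693160-7693459, minus strand), Atf3 (chr1:191183284-191183583, minus strand) and Trib3 (chr2:152344011-152344310, minus strand) held the C/EBP-ATF element.
Hspa5: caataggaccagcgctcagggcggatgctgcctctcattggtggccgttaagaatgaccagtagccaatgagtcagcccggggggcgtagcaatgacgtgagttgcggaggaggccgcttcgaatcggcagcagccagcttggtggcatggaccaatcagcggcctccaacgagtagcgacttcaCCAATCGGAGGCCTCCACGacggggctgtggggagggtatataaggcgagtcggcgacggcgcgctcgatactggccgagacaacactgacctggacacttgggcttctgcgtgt
Hsp90b1: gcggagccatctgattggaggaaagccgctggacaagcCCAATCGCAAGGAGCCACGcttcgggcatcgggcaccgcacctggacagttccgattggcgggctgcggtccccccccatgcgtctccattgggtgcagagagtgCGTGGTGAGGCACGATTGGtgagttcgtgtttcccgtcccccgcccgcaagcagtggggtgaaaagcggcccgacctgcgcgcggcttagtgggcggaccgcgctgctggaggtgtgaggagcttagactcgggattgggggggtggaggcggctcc
Asns: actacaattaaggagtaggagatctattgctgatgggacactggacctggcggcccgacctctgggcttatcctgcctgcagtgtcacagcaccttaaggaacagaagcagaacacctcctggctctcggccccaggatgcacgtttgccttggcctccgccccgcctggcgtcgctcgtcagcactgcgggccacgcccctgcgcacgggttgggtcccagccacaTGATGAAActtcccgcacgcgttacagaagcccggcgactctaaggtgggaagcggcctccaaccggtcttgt
Atf3: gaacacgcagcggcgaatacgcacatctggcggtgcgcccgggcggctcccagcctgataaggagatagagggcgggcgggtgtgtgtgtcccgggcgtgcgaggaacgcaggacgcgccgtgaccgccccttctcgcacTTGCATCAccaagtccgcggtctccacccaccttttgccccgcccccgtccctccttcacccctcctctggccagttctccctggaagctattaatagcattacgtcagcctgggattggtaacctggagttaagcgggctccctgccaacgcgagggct
Trib3: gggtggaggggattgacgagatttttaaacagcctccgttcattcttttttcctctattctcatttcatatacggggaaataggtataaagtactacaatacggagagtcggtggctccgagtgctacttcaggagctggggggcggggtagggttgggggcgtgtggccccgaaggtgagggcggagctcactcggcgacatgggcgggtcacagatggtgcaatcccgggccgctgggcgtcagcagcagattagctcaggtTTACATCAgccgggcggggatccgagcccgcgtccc
The ER stress response element lay at bases -65 to -47 from the start in Hspa5, and Hsp90b1 held 2 copies, at -212 to -194 and, on the opposite strand, at -107 to -89. It was present in 0.119% of the 32851 RefSeq windows of this length. The C/EBP-ATF element lay at -23 to -16 in Asns, at -110 to -103 on the opposite strand in Atf3, and at 14 to 21, past the start and on the opposite strand, in Trib3. It was present in 3.97% of windows. The third motif, present in 0.676% of windows, was in 0 of the 10. A match is only a run of letters in this window, and the other 5 genes held none of the 3 motifs there.

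Adenine feeding was accompanied by higher transcripts of most of the PERK and ATF4 branch and by no rise of the chaperones. Compared to the Con group, 5 of the 10 genes rose in the Ade group, namely Atf3, Asns, Ddit3, Atf4 and Xbp1, where 35.1% of the 14612 genes tested rose. None of the 10 fell, where 32.1% of all genes fell, although the call of Hspa5 depended on the processing. Since so many genes were called in both directions, a call by itself sets these genes little apart, so size and spread are given for each. The share of all genes whose Ade and Con mice do not overlap was not counted. A lack of overlap therefore does not by itself set a gene apart either. The kidneys also differed in makeup. The summed CPM of 12 proximal tubule markers was 14133 to 19632 in the Con group and 2651 to 8655 in the Ade group, that of 10 macrophage markers 226 to 269 and 1525 to 2562, that of 10 fibroblast markers 496 to 579 and 3240 to 4086, and that of 10 markers of other nephron segments 8680 to 12742 and 4243 to 8700, with 0 markers at 0 in all mice. In whole-kidney RNA, fewer cells of a type and less RNA per cell cannot be told apart, and the part of this makeup in the results below was not tested.

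**Figure D1:**
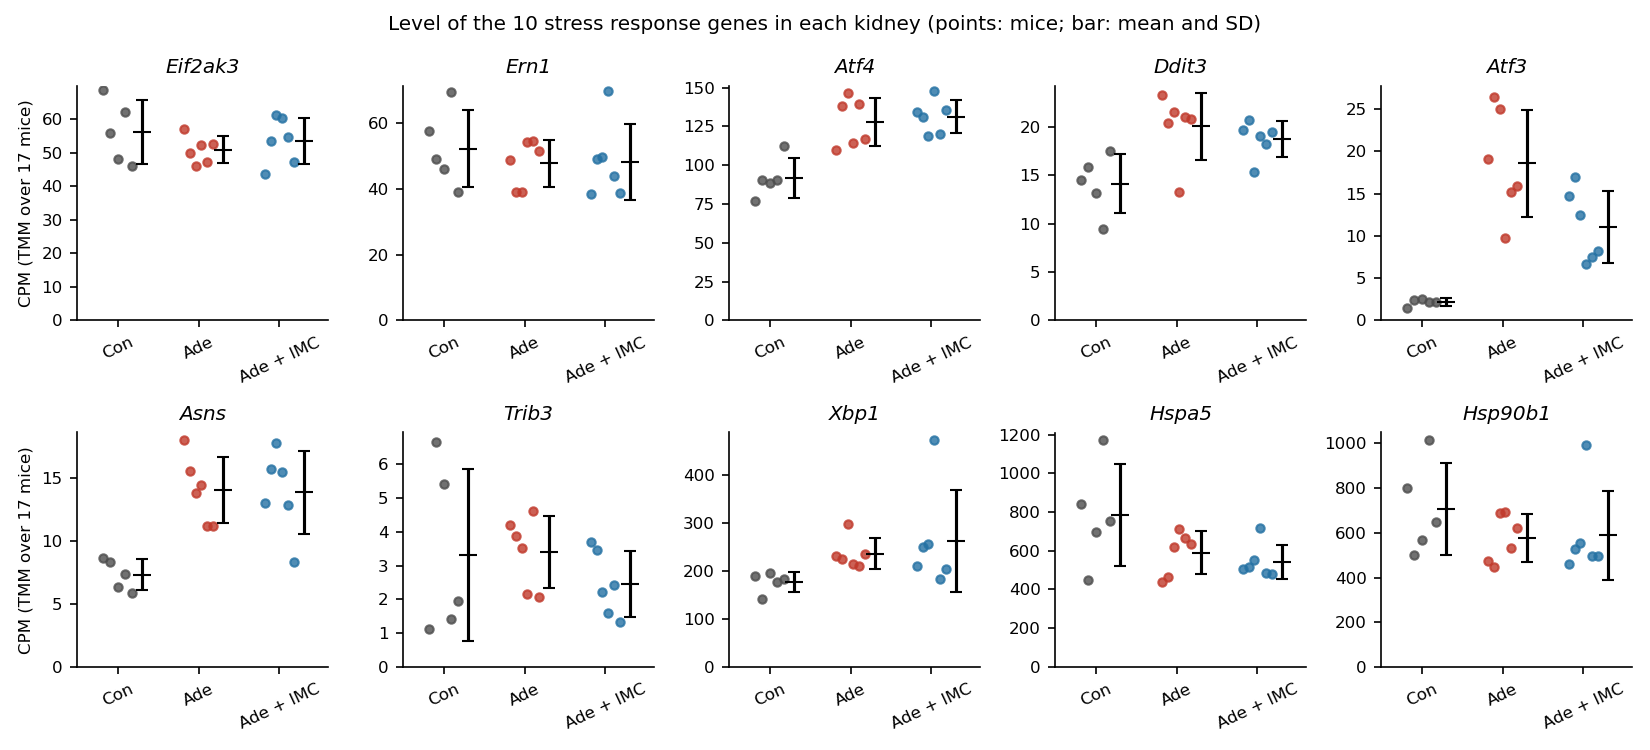
CPM of the 10 genes in each kidney, by group, on linear axes from 0, with 1 point per mouse and the mean and SD beside the points. The Ade mice lie above all Con mice for Atf3, Asns and Xbp1, while the groups overlap for Eif2ak3, Ern1, Trib3, Hspa5 and Hsp90b1.

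The sensors did not pass the test. Eif2ak3 (ENSMUSG00000031668, chromosome 6 from 70844515 to 70905245, plus strand), which encodes PERK, had a CPM of 68.7, 56.0, 48.1, 62.1 and 46.0 in Con mice 201, 202, 301, 302 and 403. Its CPM in the Ade group was 46.1 at the lowest, 51.2 at the median and 57.2 at the highest. The groups overlapped throughout, with a log2 fold change of -0.12 (SE 0.10, edgeR adjusted p = 0.332) and an approximate 95% interval of -0.32 to 0.08. Of its exonic bases, 485 are shared with an antisense gene, and the use of strand in counting is not stated, so its level is uncertain. Ern1 (ENSMUSG00000020715, chromosome 11 from 106394650 to 106487852, minus strand), which encodes IRE1, had a CPM of 57.6, 49.1, 46.0, 69.6 and 39.2 in the Con mice. In the Ade group it ranged from 39.0 through a median of 50.1 to 54.5. The log2 fold change was -0.11 (SE 0.14, edgeR adjusted p = 0.527), with an interval of -0.38 to 0.17.

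Atf3 changed most of the 10 genes. It encodes a transcription factor induced by ATF4 and by many other stress signals. Atf3 (ENSMUSG00000026628, chromosome 1 from 191170296 to 191218039, minus strand) had a CPM of 1.41, 2.45, 2.57, 2.21 and 2.22 in the Con mice, from only 14 to 19 reads each. In the Ade mice its CPM was 9.74 at the lowest, 17.5 at the median and 26.5 at the highest. Every Ade mouse thus lay above every Con mouse. Its log2 fold change was 3.13 (SE 0.28, edgeR adjusted p = 5.47e-07), an 8.74-fold rise. The lowest Ade mouse was 407, which also had the highest summed proximal tubule markers of the Ade group, 8655.

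Asns, the target of ATF4 that makes asparagine, rose 1.94-fold. Asns (ENSMUSG00000029752, chromosome 6 from 7675169 to 7693254, minus strand) had a CPM of 8.68, 8.38, 6.37, 7.4 and 5.88 in the Con mice. It was 11.2 at the lowest, 14.2 at the median and 18.0 at the highest in the Ade mice. The groups did not overlap, and the log2 fold change was 0.96 (SE 0.16, edgeR adjusted p = 0.000138). Mouse numbers begin with 2, 3 or 4, a digit whose meaning is not given, and among mice that share it the mean log2 difference of Asns was 0.90, 0.92 and 0.94.

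Atf4 itself and Ddit3 rose by smaller amounts. Atf4 (ENSMUSG00000042406, chromosome 15 from 80255184 to 80257541, plus strand), the central transcription factor of the branch, had a CPM of 77.1, 90.7, 88.4, 90.3 and 112 in the Con mice and 110 at the lowest, 128 at the median and 147 at the highest in the Ade mice. All Ade mice but the lowest exceeded all Con mice, and the log2 fold change was 0.50 (SE 0.11, edgeR adjusted p = 0.00135). Ddit3 (ENSMUSG00000025408, chromosome 10 from 127290774 to 127296288, plus strand) encodes CHOP, which promotes cell death under prolonged ER stress. It had a CPM of 14.5, 15.9, 13.1, 9.48 and 17.5 in the Con mice, and 13.3, 20.9 and 23.3 at the lowest, median and highest of the Ade mice. The lowest Ade value was again mouse 407, within the Con range, and the other 5 lay above it. The log2 fold change of Ddit3 was 0.53 (SE 0.17, edgeR adjusted p = 0.0128). Among mice that share the first digit 2, 3 or 4, the mean log2 difference was 0.55, 0.71 and 0.13 for Atf4. For Ddit3 it was 0.49, 0.89 and 0.035, so both rises were small for digit 4. The only Con mouse with digit 4 was 403, the highest Con mouse for both genes. Among the exonic bases of Ddit3, 186 are shared with other annotated genes, antisense genes and a second Ddit3 entry among them, so its level is uncertain.

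Trib3 did not follow the other targets. Trib3 (ENSMUSG00000032715, chromosome 2 from 152337422 to 152344032, minus strand) encodes a pseudokinase induced by ATF4 and CHOP. Its CPM was 1.11, 6.64, 5.42, 1.43 and 1.96 in the Con mice, so that 2 Con mice lay above every Ade mouse. The Ade mice held 2.06 at the lowest, 3.69 at the median and 4.62 at the highest, with 16 to 37 reads each. Trib3 had a log2 fold change of 0.09 (SE 0.44, edgeR adjusted p = 0.867), and its interval of -0.76 to 0.95 is wide enough to hold the change measured for Atf4.

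Xbp1 rose, and in the adenine-fed mice it was highest where RNA of plasma cell markers was highest. Xbp1 (ENSMUSG00000020484, chromosome 11 from 5520659 to 5525893, plus strand) encodes a transcription factor of ER expansion that plasma cells need to secrete antibody. Its CPM was 189, 142, 197, 178 and 183 in the Con mice and 211 at the lowest, 228 at the median and 299 at the highest in the Ade mice. The groups did not overlap (log2 fold change 0.43, SE 0.11, edgeR adjusted p = 0.00410). The highest value was that of mouse 308, whose 14 plasma cell markers summed to 16601 CPM, the most of the Ade group. Those markers summed to 68.3 to 186 CPM in the Con mice and to 456 to 16601 in the Ade mice, and 11 of the 13 tested rose and 1, Eaf2, fell (log2 fold change -0.56, edgeR adjusted p = 0.0503), where 35.1% of all genes rose and 32.1% fell. Mouse 208, with the fewest of these markers among the Ade mice, 456 CPM, still had an Xbp1 CPM of 224, above the highest Con mouse.

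**Figure D2:**
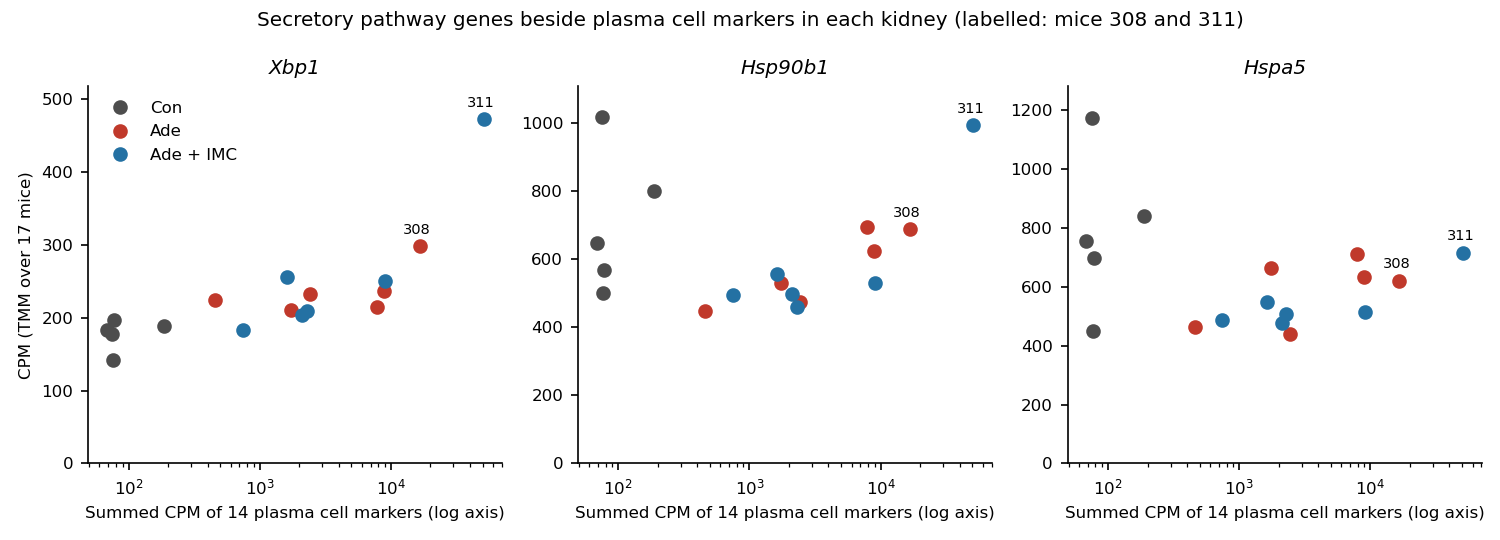
CPM of Xbp1, Hsp90b1 and Hspa5 in each kidney against the summed CPM of 14 plasma cell markers on a log axis, with 1 point per mouse coloured by group. Mouse 311 (50876 CPM of markers) has the highest Xbp1, 473, and mouse 308 (16601) the next, 299, while Con mouse 302, with the highest Hspa5 and Hsp90b1, has 75.1 CPM of markers.

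The chaperones were the most abundant of the 10 genes and did not rise. Per kb of exon, the mean level in the Con group was 185 CPM for Hspa5 and 175 for Hsp90b1, compared to 54.7 for Xbp1, 38.9 for Atf4 and 1.01 for Atf3. Hspa5 (ENSMUSG00000026864, chromosome 2 from 34771970 to 34777547, plus strand) encodes BiP, the ER chaperone that holds the sensors inactive. Its CPM was 841, 451, 698, 1174 and 756 in the Con mice and 441, 627 and 714 at the lowest, median and highest of the Ade mice. The Con mice alone spread more widely than the Ade mice, and 3 of them lay above every Ade mouse. For Hspa5 the log2 fold change was -0.39 (SE 0.20, edgeR adjusted p = 0.114). This missed the threshold, and the call turned under 6 alternatives, DESeq2 (adjusted p = 0.0871) and the fit without Con mouse 202 (-0.54, edgeR adjusted p = 0.0198) among them, while without Con mouse 302 the log2 fold change was only -0.20.

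Hsp90b1 (ENSMUSG00000020048, chromosome 10 from 86690209 to 86705509, minus strand) encodes GRP94, the ER form of HSP90. It had a CPM of 800, 500, 567, 1017 and 648 in the Con mice and 446 at the lowest, 577 at the median and 694 at the highest in the Ade mice. Mouse 302 was the highest Con mouse for both chaperones and for Ern1. The log2 fold change was -0.27 (SE 0.18, edgeR adjusted p = 0.215), with -0.38 without Con mouse 202 (edgeR adjusted p = 0.0925) and -0.11 without Con mouse 302 (edgeR adjusted p = 0.603). Its exons share 632 bases with a pseudogene on the other strand and with entries on its own strand, which makes its level uncertain.

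The other genes of the pathway were counted from 4 lists. Of 34 other targets of ATF4 and CHOP that were tested, 17 rose and 8 fell in the Ade group, with a median log2 fold change of 0.33, compared to 0.02 over all genes tested, of which 35.1% rose and 32.1% fell. Genes of amino acid supply stood on both sides. Aldh18a1, which starts proline synthesis, had a CPM of 6.26 to 7.58 in the Con mice and 22.1 to 29.7 in the Ade mice (log2 fold change 1.95, edgeR adjusted p = 1.21e-08). Slc7a5, a transporter of large neutral amino acids, had 5.97 to 6.93 CPM in the Con mice and 15.6 to 24.6 in the Ade mice (log2 fold change 1.79, edgeR adjusted p = 9.75e-08). Cebpb, a transcription factor that also acts in inflammation, rose by a log2 fold change of 1.83 (edgeR adjusted p = 7.44e-07). Among the genes that fell was Cth, the last enzyme of cysteine synthesis, with 220 to 288 CPM in the Con mice and 45.7 to 136 in the Ade mice (log2 fold change -1.58, edgeR adjusted p = 5.34e-05). Vldlr, a lipoprotein receptor (-1.13), and Gpt2, the mitochondrial alanine aminotransferase (-0.80), also fell (edgeR adjusted p = 3.06e-05 and 5.54e-05).

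Of 28 ER chaperones and folding enzymes besides the 10 genes, 2 rose, 9 fell and 17 did not pass, with a median log2 fold change of -0.14. The share that fell equals that of all genes tested (32.1%), and the share that rose is below that of all genes (35.1%). The 2 that rose were Dnajc10, a disulfide reductase (log2 fold change 0.34, edgeR adjusted p = 0.00137), and Fkbp11 (log2 fold change 0.999, edgeR adjusted p = 0.00505), a prolyl isomerase known to be high in secretory cells. Dnajc3, an inhibitor of PERK and a BiP cochaperone, fell from 253 to 393 CPM in the Con mice to 122 to 237 in the Ade mice (log2 fold change -0.86, edgeR adjusted p = 0.000395). Sil1, which exchanges the nucleotide of BiP, had a log2 fold change of -0.48, and Ero1l (Ero1a), an oxidase of disulfide formation, one of -0.69 (edgeR adjusted p = 0.000143 and 0.000159).

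ER-associated degradation, which returns misfolded proteins to the cytosol for the proteasome, had 3 genes that rose and 9 that fell of 18 tested (median log2 fold change -0.14), where 35.1% of all genes rose and 32.1% fell. Herpud1, a scaffold of the degradation complex and itself a target of the response, had 249 to 370 CPM in the Con mice and 112 to 201 in the Ade mice (log2 fold change -1.06, edgeR adjusted p = 4.70e-05). The lectin Erlec1 fell by 0.56 on the log2 scale (edgeR adjusted p = 0.000252). Edem2 (0.50), Ube2j1 (0.24) and Ube2g2 (0.19) were the 3 that rose (edgeR adjusted p = 0.00437, 0.0381 and 0.0948). Among 23 other sensors and regulators of eIF2, 6 rose and 11 fell (median log2 fold change -0.10), to be read against the same shares. The eIF2 kinases stood on both sides. Eif2ak2, the double-stranded RNA sensor PKR, had 31.8 to 38.9 CPM in the Con mice and 51.8 to 61.1 in the Ade mice (log2 fold change 0.75, edgeR adjusted p = 2.47e-06). Eif2ak1, the haem-regulated kinase, fell by 0.41 (edgeR adjusted p = 0.00136). Traf2, an adaptor of IRE1 and of tumour necrosis factor receptors (0.82), and Nck1 (0.39) rose, and Tmbim6, an inhibitor of IRE1, fell by 0.91 on the log2 scale (edgeR adjusted p = 1.64e-05, 0.00764 and 0.000111). Without mouse 308, the counts of the ATF4 list were 18 higher and 7 lower, those of the chaperone list 2 and 10, those of degradation 2 and 9, and those of the last list 6 and 7, where 33.7% of all genes rose and 31.2% fell.

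**Figure D3:**
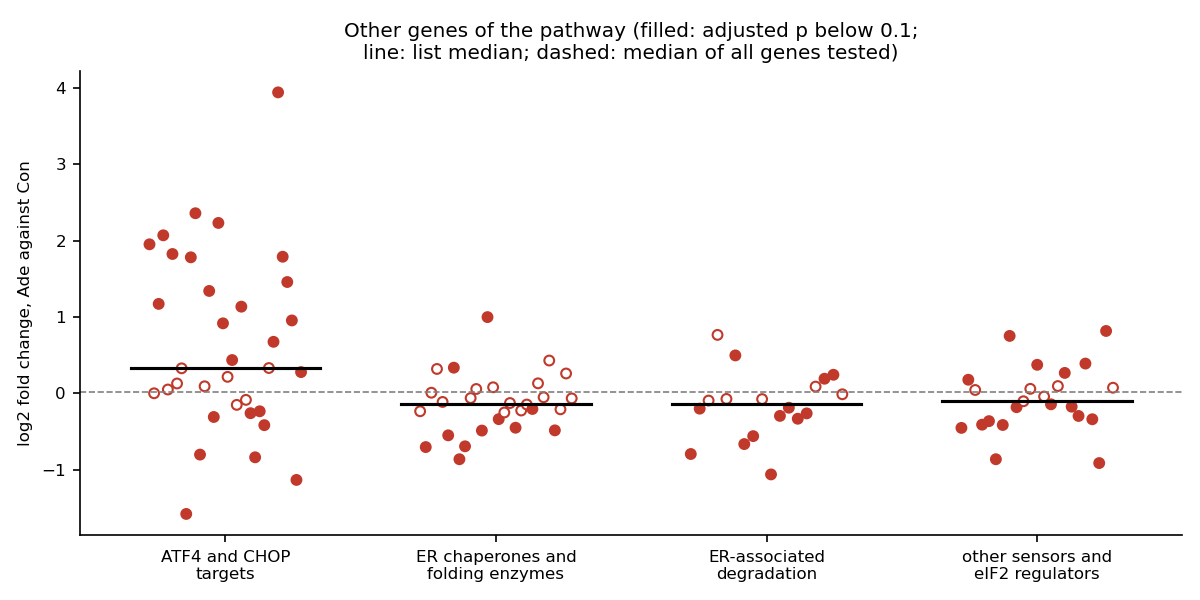
Log2 fold change between the Ade and Con groups of each gene in the 4 pathway lists, with filled points for an adjusted p-value below 0.1, a line at the median of each list and a dashed line at the median of all genes tested (0.02). The ATF4 and CHOP targets reach from below -1 to almost 4 with a median of 0.33, and the other lists have medians of -0.14, -0.14 and -0.10.

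The same 10 genes were then compared between the Ade + IMC and Con groups, which share the Con mice with the comparison above. In the Ade + IMC mice the summed CPM was 3974 to 7515 for the proximal tubule markers, 1382 to 2290 for the macrophage markers and 2435 to 3707 for the fibroblast markers, all outside the Con ranges given above. It was 6993 to 10791 for the markers of other nephron segments, which overlaps the Con range. Their part in these changes was not tested. The 5 genes Atf3, Asns, Atf4, Ddit3 and Xbp1 were higher than in the Con group, where 30.8% of the 14578 genes tested were, and Hspa5 was lower, where 32.3% were. The log2 fold changes were 2.33 for Atf3 (SE 0.29, edgeR adjusted p = 1.75e-05), 0.89 for Asns (SE 0.19, edgeR adjusted p = 0.00111) and 0.49 for Atf4 (SE 0.10, edgeR adjusted p = 0.000800). For Ddit3 the log2 fold change was 0.38 (SE 0.14, edgeR adjusted p = 0.0345).

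Mouse 311 of the Ade + IMC group stood apart for the secretory genes. Its Xbp1 CPM was 473, compared to 183 to 256 in the other 5 mice of its group, and its Hsp90b1 CPM was 993, compared to 459 to 556. Hspa5 was 715 (others 477 to 550) and Ern1 69.7 (others 38.4 to 49.6). Of the 14 plasma cell markers, 13 were at their highest of the 17 mice in it and Sdc1 (79.6 CPM) was higher in mouse 207 (115 CPM). It had 2273 CPM of Jchain, the joining chain of secreted antibody, 131 of Mzb1 and 53.3 of Derl3, and a sum of 50876 CPM compared to 743 to 9046 in the others of the group. Values of Xbp1, Hspa5, Hsp90b1 and Ern1 are therefore given with and without this mouse. Xbp1 had a log2 fold change over Con of 0.54 (SE 0.22, edgeR adjusted p = 0.0524) with it and 0.29 (edgeR adjusted p = 0.0444) without it. Without Con mouse 202 the Xbp1 call was lost (edgeR adjusted p = 0.119). Hspa5 was lower than in the Con group with mouse 311 (log2 fold change -0.56, SE 0.20, edgeR adjusted p = 0.0277) and without it (-0.66, edgeR adjusted p = 0.00895), and without Con mouse 302 its log2 fold change was -0.37 (edgeR adjusted p = 0.0941). All Ade + IMC mice lay within the Con range of Hspa5 (477 to 715 CPM compared to 451 to 1174). The two-sided exact permutation test of Hspa5 gave p = 0.0823. Hsp90b1 missed the threshold with mouse 311 (-0.29, edgeR adjusted p = 0.302) and passed without it (-0.50, edgeR adjusted p = 0.0169). Without Con mouse 302 Hsp90b1 was at -0.12 (edgeR adjusted p = 0.673). The genes Eif2ak3 (-0.10), Ern1 (-0.14) and Trib3 (-0.44) did not pass (edgeR adjusted p = 0.512, 0.515 and 0.442). Ern1 was at -0.28 without mouse 311 (edgeR adjusted p = 0.105) and at -0.02 without Con mouse 302 (edgeR adjusted p = 0.936). The value of Trib3 lay between -0.68 (without Con mouse 201) and -0.03 (without Con mouse 202) in the fits that each left out 1 mouse.

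In the pathway lists, 20 of the ATF4 and CHOP targets were higher and 7 lower than in the Con group (median log2 fold change 0.44). For the chaperones the counts were 2 higher and 10 lower (median -0.15), for degradation 2 and 6 (median -0.14) and for the other sensors and eIF2 regulators 4 and 9 (median -0.12), with a median of -0.02 over all genes, of which 30.8% were higher and 32.3% lower. Mouse 311 moved the counts of degradation genes by over 1.5 times. Without it, the counts were 18 and 7, 2 and 14, 2 and 11, and 4 and 10, in the same order, where 29.7% of all genes were higher and 32.1% lower.

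Whether IMC changed these genes in adenine-fed mice was asked of the Ade + IMC and Ade groups, whose diets differ in IMC. None of the 10 genes was called by limma, and neither was any of the 14696 genes tested (0% called), while an unadjusted p-value below 0.05 was found for 6.6% of them. On the recovered reads edgeR called 0 genes and DESeq2 37, none of the 10 among them. With a term for the first digit in the fit, limma called 123 genes, edgeR 106 and DESeq2 591. The edgeR and DESeq2 fits with this term were added after seeing the data. Only Atf3 of the 10 was then called, by DESeq2 (log2 fold change -0.86, adjusted p = 0.00615). The digit was not shown to pair mice. The paper, with DESeq2 and the same threshold of 0.1, reports higher and lower genes in this comparison. Why these counts differ was not tested. Of the 10 genes, Atf3 alone had an unadjusted p-value below 0.05 by limma with all mice. The CPM of Atf3 was 9.74, 17.5 and 26.5 at the lowest, median and highest of the Ade mice and 6.69, 10.3 and 16.98 in the Ade + IMC mice. The groups overlapped, with 3 Ade + IMC mice below the lowest Ade mouse. Atf3 had a log2 fold change of -0.76 (SE 0.28, unadjusted p = 0.0176 and adjusted p = 0.727 by limma), with an approximate 95% interval of -1.31 to -0.21. The two-sided exact permutation test gave p = 0.0411, and p = 0.0167 when permuted among mice with the same first digit, where the difference was -0.51, -1.46 and -0.78 for the digits 2, 3 and 4. Among the cell type markers limma called 0 between these groups. All 10 macrophage markers had log2 fold changes below 0 (-0.59 to -0.04, median -0.26), and all 10 markers of other nephron segments had values above 0 (0.21 to 0.76, median 0.50). The median was 0.30 over 11 proximal tubule, -0.08 over 10 fibroblast and -0.04 over 13 plasma cell markers. That of the plasma cell markers rested on single mice. It was -0.72 without Ade + IMC mouse 311 and 0.29 without Ade mouse 308. The part of the cell types in the Atf3 difference was not tested.

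With all 12 mice, the other 9 genes had unadjusted p-values above 0.1. Trib3 came next, with a median CPM of 3.69 in the Ade mice and 2.32 in the Ade + IMC mice, and a log2 fold change of -0.49 (SE 0.29, limma adjusted p = 0.770). The intervals bound the change of the rest. For Atf4 the log2 fold change was 0.03, with an interval of -0.15 to 0.21, and for Asns it was -0.05 (-0.40 to 0.31). For Eif2ak3 it was 0.05 (-0.13 to 0.24), and for Ddit3 -0.09 (-0.35 to 0.16). Without Ade mouse 407, the lowest Ade mouse for Ddit3, that gene was at -0.21 (unadjusted p = 0.0465 and adjusted p = 0.381 by limma). Hspa5 had -0.12 (-0.40 to 0.15), Hsp90b1 -0.01 (-0.38 to 0.35), Xbp1 0.07 (-0.31 to 0.46) and Ern1 -0.02 (-0.30 to 0.27). Without mouse 311 Hspa5 was at -0.21, Hsp90b1 at -0.18, Xbp1 at -0.12 and Ern1 at -0.13, so that Xbp1 changed sign. None of these was called (limma adjusted p = 0.545, 0.593, 0.710 and 0.653).

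**Figure D4:**
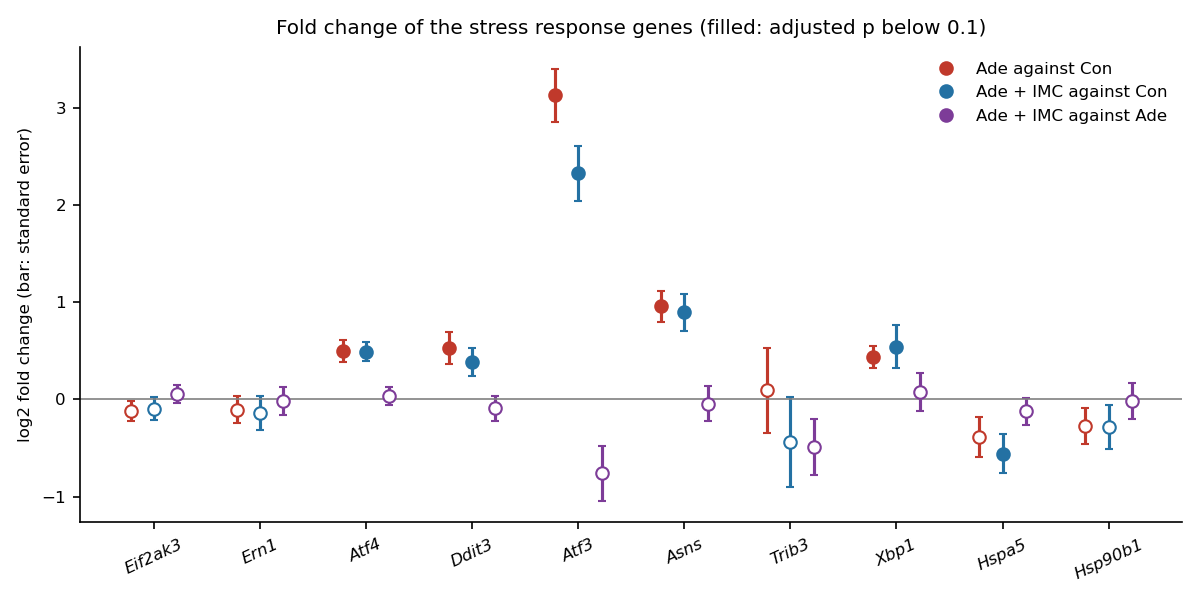
Log2 fold change with its standard error of the 10 genes in the 3 comparisons, filled where the adjusted p-value is below 0.1. Atf3 stands at 3.13 and 2.33 over Con and at -0.76 between the adenine-fed groups, and no point of the last comparison is filled.

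In the 4 lists, limma also called 0 genes between the Ade + IMC and Ade groups, and the numbers with an unadjusted p-value below 0.05 were 5 of 34 ATF4 and CHOP targets, 1 of 28 chaperones, 2 of 18 degradation genes and 1 of 23 other regulators, compared to 6.6% of all genes. The gene with the smallest p-value was Jdp2 in the ATF4 and CHOP list, a transcriptional repressor (log2 fold change 0.41, limma adjusted p = 0.727), Sil1 in the chaperone list (0.21, limma adjusted p = 0.731) and Eif2ak2 in the list of other regulators (-0.22, limma adjusted p = 0.727). Jdp2, Sil1 and Eif2ak2 had log2 fold changes of 0.09, -0.48 and 0.75 between the Ade and Con groups. That comparison shares the Ade mice with this one, and Jdp2 did not pass in it (edgeR adjusted p = 0.628).

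How the genes varied together was described over the 12 adenine-fed mice, on log2(normalized count + 1), for 45 pairs. Hspa5 and Hsp90b1 varied together (Pearson's r = 0.84, permutation p = 0.00023, adjusted over the pairs 0.0103, and Spearman's rho = 0.84, permutation p = 0.00111, adjusted 0.0499). Without the 2 mice farthest from the median of Hspa5 (311 and 407) r was 0.78, and it was 0.83 within the Ade and 0.96 within the Ade + IMC group. Xbp1 and Hsp90b1 had r = 0.83 (permutation p = 0.00455, adjusted 0.0682, and rho = 0.63, permutation p = 0.0319, adjusted 0.240), but without mice 311 and 308 r was 0.24, so this relation rests on those mice. Trib3 and Atf3 had r = 0.77 (permutation p = 0.00442, adjusted 0.0682, and rho = 0.66, permutation p = 0.0233, adjusted 0.210), and r = 0.62 without mice 412 and 311. The genes whose pattern was most like that of Hspa5 were Dnajb11 (r = 0.91), Manf (0.90), Foxn2 (0.90), Ggcx (0.90) and Adap2 (0.88). Dnajb11 encodes a cochaperone of BiP and Manf a secreted ER stress protein. For Asns, they were Zdhhc16 (r = 0.90), Sidt2 (0.87), Slc41a1 (0.87), Rangap1 (0.87) and Pcnx3 (0.85). These 10 were picked for their r over the same mice, which share library depth and makeup.

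**Figure D5:**
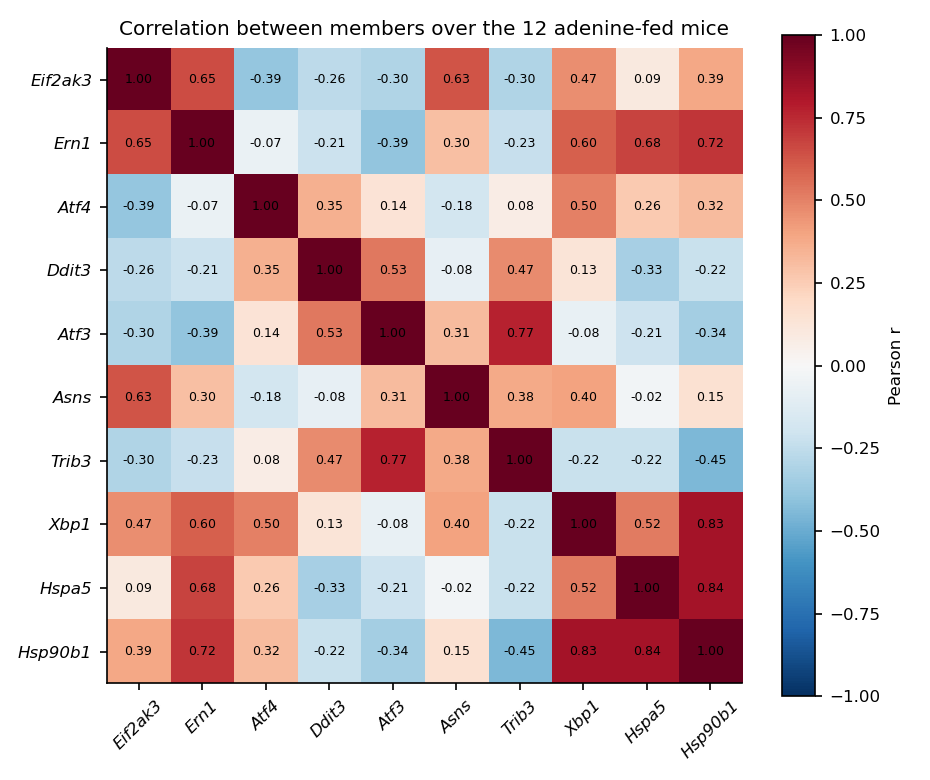
Pearson's r between the log2 levels of the 10 genes over the 12 adenine-fed mice, from -1 (blue) to 1 (red). The pair Hspa5 and Hsp90b1 has r = 0.84, Xbp1 and Hsp90b1 0.83, and Trib3 and Atf3 0.77.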

How the data were processed

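Kidney RNA-seq of 17 mice was used (5 Con, 6 Ade, 6 Ade + IMC), with groups from the labels. Single-end reads were aligned to mm10, with STAR in the study's methods, while the submitters' processing notes name Trimmomatic 0.39, FastQC 0.11.8, Bowtie2 2.2.5, HTSeq 0.9.1 and DESeq2. Which annotation release was counted, and whether strand was used, is not given in the sources used here. The authors deposited raw counts per gene for Con and Ade, and for Ade and Ade + IMC a signal, the count divided by DESeq2's size factor. The authors' own log2 fold changes, Wald statistics and p-values for Ade + IMC and Ade, in the file that pairs gene names with Ensembl identifiers, were not used. Of the normalized values above 0, 100% were whole multiples of 1 read within a relative tolerance of 1e-06, and for Ade 0 recovered values differed from the raw counts, so recovered reads were set against the Con counts. Columns outside the samples numbered 0. All pairs of mice of a group differed beyond counting noise (lowest chi-square over its degrees of freedom, 3.97).

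Ade and Ade + IMC were each compared with Con by edgeR 4.0.16 (quasi-likelihood, TMM, its own filter), and with each other, since the deposited values are normalized, by limma 3.58.1 (trend, on the log2 of the normalized count plus 1), which understates the change of low genes, over genes with a mean of at least 10, in R 4.3.3. DESeq2 1.42.0 was an alternative. Exact permutation tests were two-sided, and with 5 mice against 6 cannot go below 0.00433. The fits were also run on simulated data, and the outcome is not given here. Intervals of fold changes are approximate 95% intervals from the normal distribution.

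The members and lists were chosen with earlier results of these data known. Named were all 10 members, in each pathway list the 3 genes that rose and the 3 that fell in Ade, called and ranked by adjusted p, the 1 with the smallest unadjusted p between Ade + IMC and Ade, and the 5 genes with the highest r to Hspa5 and to Asns. The result of 1 gene that this rule names is not reported here. Cell type markers were given as counts, ranges and defining genes. Jchain, Mzb1, Derl3 and Sdc1 in mouse 311 and Eaf2 were chosen after their values were seen. Derl3 is in the degradation and plasma cell lists, and Dnajc3 in 2 pathway lists.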

Additional observations from a re-analysis of the deposited data

Results flagged for a closer look

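Of 30 groups of values (10 genes in 3 groups), 6 held a mouse far from the others of its group, where chance gives about 1 in 20 groups. Mouse 311 of the Ade + IMC group accounted for 4 of them, with a CPM of 473 for Xbp1 (others 183 to 256), 993 for Hsp90b1 (others 459 to 556), 715 for Hspa5 (others 477 to 550) and 69.7 for Ern1 (others 38.4 to 49.6). Its summed plasma cell markers, 50876 CPM, were the highest of the 17 mice, and the part of these cells in the 4 values was not tested. Mouse 308 of the Ade group had an Xbp1 CPM of 299 (others 211 to 236) and the highest summed plasma cell markers of its group, 16601 CPM. Mouse 407 of the Ade group had a Ddit3 CPM of 13.3 (others 20.3 to 23.3), the lowest Atf3 of its group (9.74) and the highest summed proximal tubule markers of its group (8655 CPM).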

How the results depend on the processing

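The count of the 10 genes called was 5 in Ade against Con, with 5 to 7 under the alternatives, and 6 in Ade + IMC against Con, with 5 to 7. The calls of Atf3, Asns, Atf4 and Ddit3 held in both under every alternative run, and that of Xbp1 held in Ade against Con. In Ade + IMC against Con, Xbp1 was lost at a threshold of 0.05. Hspa5 in Ade against Con passed with DESeq2 (adjusted p = 0.0871), DESeq2's size factors in edgeR (0.0997), 17 mice in 1 fit (0.0802), without Con mouse 202 (0.0198) or Ade mouse 407 (0.0741), and with the block below (0.0676).

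The first digit of the mouse number was tried as a replicate block. Mice of the same digit in different groups had a mean correlation of 0.0729 (31 pairs, -0.278 to 0.508) and those of different digits one of -0.0347 (65 pairs), so the digit was not shown to pair mice. In Ade + IMC against Ade the block moved the number of genes called by limma from 0 to 123. Blocked fits added after seeing the data called 106 genes (edgeR on recovered reads) and 591 (DESeq2), and DESeq2 without the block called 37. Atf3 had a blocked log2 fold change of -0.84 in limma (adjusted p = 0.108) and of -0.86 in DESeq2 (adjusted p = 0.00615), the 1 call of a member in this comparison, and the cause was not tested. Uncalled values near 0 changed sign with the block, for Xbp1 to -0.042 (limma), -0.036 (edgeR) and -0.025 (DESeq2) and for Atf4 to -0.0053 (edgeR). On recovered reads without the block, Ern1 turned to 0.0044 (DESeq2) and Hsp90b1 to 0.0066 (edgeR) and 0.023 (DESeq2).

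Leaving out 1 mouse at a time gave a log2 fold change of -0.20 to 0.013 for Ern1 and -0.15 to 0.50 for Trib3 in Ade against Con, none of them called. In Ade + IMC against Ade it gave -0.13 to 0.043 for Ern1, -0.0093 to 0.078 for Atf4, -0.12 to 0.095 for Asns, -0.12 to 0.17 for Xbp1 and -0.18 to 0.045 for Hsp90b1, none called. Without a change of sign, Eif2ak3 moved between -0.19 and -0.043 in Ade against Con, -0.17 and -0.019 in Ade + IMC against Con and 0.013 and 0.11 in Ade + IMC against Ade, where Hspa5 moved between -0.21 and -0.065 and Ddit3 between -0.21 and -0.036, none called. Low counts limit Trib3 (9 to 46 reads per mouse) and Atf3 in Con (14 to 19).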
